A study of Homo sapiens with 2 samples.

Results

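The 9 genes described here belong to insulin and insulin-like growth factor (IGF) receptor signalling. They comprise the receptor genes INSR, IGF1R and IGF2R, the insulin receptor substrate genes IRS1, IRS2 and IRS4, the adaptor gene GRB10 and the PI3K regulatory subunit genes PIK3R1 and PIK3R2. They were taken by name from the 25277 rows of the deposited gene tables, and each name matched 1 row. IRS4 was chosen by its large ratio between the samples in these same data. That ratio is therefore a description. The other 8 genes were listed with it for their role, with earlier results of these data known.

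RNA came from HEK293 cells, an established human embryonic kidney line, at passage 15 to 20. The WT group was 1 library of wild-type cells and the PERK-KO group 1 library of cells whose EIF2AK3 gene, which encodes the ER stress kinase PERK, had been targeted with CRISPR/Cas9. Cells of both genotypes were kept for 12 h in OXPHOS medium, which lacks glucose and holds galactose, pyruvate and serum, so that ATP must come largely from oxidative phosphorylation. The methods describe isolating single cells and screening the clones by immunoblotting. They do not say which clone or guide was sequenced, so genotype, clone, culture and library cannot be told apart. With 1 library per genotype no difference could be tested, and no interval below covers the variation between cultures or clones. Gene coordinates are on GRCh37 unless another build is named.

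The values are FPKM, which scales fragments by transcript length and by all mapped fragments, with a lower and an upper confidence limit. The level of EIF2AK3 itself was 5.61 FPKM (5.11 to 6.12) in the WT library and 3.89 (3.44 to 4.34) in the PERK-KO library, and it counts transcripts whether or not they encode the whole kinase. Of 10 genes that HEK293 cells are known to express, 9 reached 1 FPKM in either library, led by the keratin gene KRT8 with 640 and 437. The exception was PAX2, with 0.981 and 0.748. The neurofilament gene NEFM was the only one of them higher in the PERK-KO library by more than 1.5-fold, with 0.662 and 5.21. LHX1 was the only one lower by as much, with 4.65 and 2.88. Of all rows that reached 1 FPKM in either library, 10.1% were higher and 7.54% lower by that much. By non-overlapping limits 2 of the 9 were higher and 6 lower, beside 26.1% and 18.7% of those rows. Among 15 markers of other cell types, 10 were under 1 in both samples. The 5 others were ACTA1, ADIPOQ, COL1A1, HBA1 and PECAM1, from 1.35 to 14.3 in WT cells and from 1.36 to 13 in PERK-KO cells, and the summed level of the list was 26.1 and 23.5. ALB, CDH5, FABP4 and INS were listed at 0 in both samples. The part of these differences in the results below was not tested.

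Insulin and the IGFs bind the receptor tyrosine kinases encoded by INSR and IGF1R, which then phosphorylate IRS proteins. Phosphorylated IRS proteins dock the regulatory subunits of PI3K, such as p85α from PIK3R1 and p85β from PIK3R2, and the lipid made by PI3K recruits AKT. GRB10 binds the activated receptors and restrains them, and IGF2R, the mannose 6-phosphate receptor, takes up IGF2 for degradation and sorts lysosomal enzymes. IRS1 and IRS2 are widely expressed, whereas IRS4 is restricted to few tissues and was first isolated as a protein from HEK293 cells.

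IRS4 lies on the minus strand of the X chromosome. Its row spans 107975727 to 107979607 (GRCh37), which is 3881 bases, as 1 unbroken block with 1 transcription start. GENCODE 44 lists transcripts of this gene with a further start 186 bases upstream of the row, and places the coding sequence from 107975809 to 107979574 of the longer transcript in its first exon, except for its last 2 bases. The RefSeq promoter windows below run from 250 bases before a start to 50 bases after it and are given on GRCh38.p14, a later build than that of the gene tables. They are shown because the E-box CACGTG, a palindrome bound by basic helix-loop-helix factors such as MYC and TFEB, was found in the windows of 3 of the 9 genes. Capitals mark the E-box.

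IRS4, lower start, minus strand, chrX:108736328-108736627: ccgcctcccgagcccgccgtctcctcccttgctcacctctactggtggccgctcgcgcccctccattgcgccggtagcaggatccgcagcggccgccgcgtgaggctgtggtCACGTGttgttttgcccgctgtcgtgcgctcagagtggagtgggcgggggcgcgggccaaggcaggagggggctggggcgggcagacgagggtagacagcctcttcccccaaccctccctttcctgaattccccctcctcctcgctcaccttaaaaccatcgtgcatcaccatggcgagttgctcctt
IGF2R, plus strand, chr6:159968832-159969131: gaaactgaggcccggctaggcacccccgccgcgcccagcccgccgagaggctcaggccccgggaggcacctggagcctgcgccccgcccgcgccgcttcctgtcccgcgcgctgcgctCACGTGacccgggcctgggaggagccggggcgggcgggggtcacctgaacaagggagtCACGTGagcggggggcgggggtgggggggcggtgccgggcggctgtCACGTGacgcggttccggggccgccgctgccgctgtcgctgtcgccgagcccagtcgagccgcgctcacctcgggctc
IRS1, minus strand, chr2:226799771-226800070: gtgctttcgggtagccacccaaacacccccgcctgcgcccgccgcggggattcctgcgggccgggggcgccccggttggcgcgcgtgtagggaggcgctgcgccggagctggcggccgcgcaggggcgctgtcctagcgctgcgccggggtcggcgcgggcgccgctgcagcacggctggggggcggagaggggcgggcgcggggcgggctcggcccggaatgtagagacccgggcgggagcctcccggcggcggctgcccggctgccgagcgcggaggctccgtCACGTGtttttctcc

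In the IRS4 window the E-box begins at position -138 from the start with the lower coordinate, between both annotated starts. The window of the upper start ends within this same E-box, after its first letters CA, and so holds no whole copy. The IGF2R window holds 3 copies, at -132, -74 and -28, and the IRS1 window holds 1 at 36, within the transcribed part. All 9 genes matched the table, with 17 windows in all, since several have more than 1 start. The E-box was present in 3 of these windows, against 7.26% of all 35116 windows. The core of the GABPα site that the study followed, CCGGAAG, was found on either strand in 1 window, that of PIK3R2 at -102, against 10.3% of all windows. A FOXO site, GTAAACA, was in none of the 17 (3.42% of all windows), and the letters TGATGNAA of ATF4 composite sites were in 1 window of PIK3R1 (3.62% of all windows). No 2 of these matches overlapped. The motifs were chosen after the windows and the ratios had been seen, and nothing is read from them about the ratios.

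IRS4 was near the limit of detection in WT cells and among the more abundant transcripts in PERK-KO cells. The WT library held 0.121 FPKM (0.0404 to 0.202) of IRS4, and the PERK-KO library held 27.1 (25.8 to 28.4). The widths of these limits corresponded to 9 fragments in the WT library and 1763 in the PERK-KO library. One IRS4 fragment was worth 0.0135 FPKM in the WT library and 0.0154 in the PERK-KO library, and 3 fragments, taken as the floor, came to 0.0404 and 0.0461, so that the WT value lies above the floor. The ratio of PERK-KO to WT was 224, with a counting interval of 118 to 490, or 7.81 on the log2 scale (6.88 to 8.94). The size of the ratio thus rests on 9 fragments. Since HEK293 cells are a known source of IRS4 protein, the low level in the library labelled WT is the value that stands against background knowledge. A gain in the PERK-KO line and a loss in the WT culture cannot be told apart with 1 library of each. Among 14244 rows that reached 1 FPKM in either library and 3 fragments in both, IRS4 ranked 1 by this ratio, the measure on which it was selected. By level it ranked 17067 of 25277 rows in the WT library and 3677 in the PERK-KO library. In bulk RNA, more cells that express a gene and more RNA per cell cannot be told apart.

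**Figure D1:**
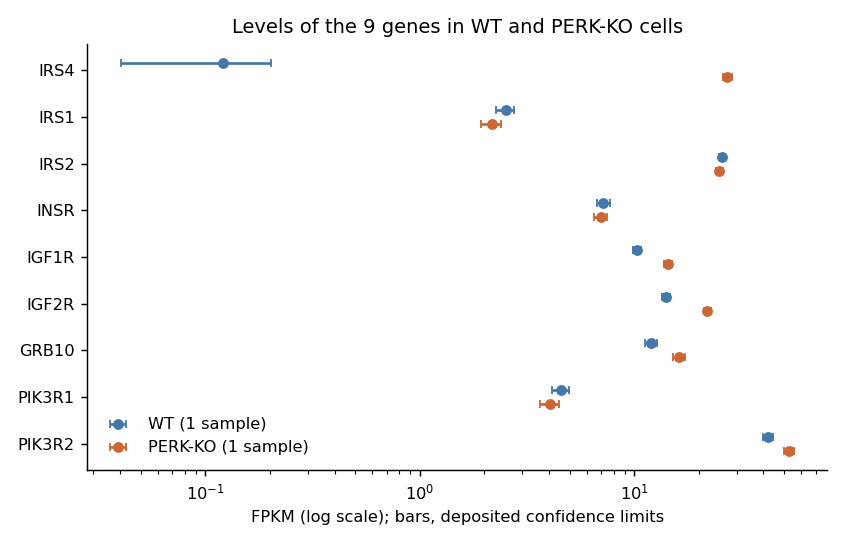
FPKM of the 9 genes on a log axis, with 1 point for each sample and bars for the deposited confidence limits. IRS4 moved from 0.121 in WT cells to 27.1 in PERK-KO cells, whereas the other 8 genes lay between 2.16 and 52.6 in both samples.

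Few rows of the table shared this pattern. An FPKM under 0.5 in WT cells with at least 10 in PERK-KO cells and a lower limit above 0 was found in 6 rows, and apart from IRS4 these were the small RNA genes MIR3652, MIR548AN, SNORD17, SNORD29 and SNORD76. The libraries were of poly(A) RNA and FPKM is scaled by length, so the levels of these short genes are uncertain. The converse pattern was found in 5 rows. The rows closest to IRS4 by distance on the log2 levels of both samples, among rows at 1 or more in both, were DEFB109P1, ALDH1L2, NMRAL1, ZNF432 and LRIG2. Their distances were 3.90 to 4.34 log2 units over 2 samples. IRS4 itself, at 0.121 in the WT library, does not reach that minimum, so no admitted row could lie near it. DEFB109P1 had 1.37 in the WT library and 8.18 in the PERK-KO library, and ALDH1L2, which encodes a mitochondrial folate enzyme, had 1.27 and 6.14. With rows of at least 3 fragments in both samples admitted, a limit set after the values had been seen, the closest were BHLHA15, LOC100630923, LCP1, INA and NEFM. BHLHA15, which encodes a transcription factor of secretory cells, was at a distance of 2.93, with 0.885 (0.295 to 1.47) in the WT library and 18.2 (15.3 to 21.0) in the PERK-KO library. LCP1, which encodes the actin-bundling protein plastin, had 0.152 and 3.31, and the neuronal filament gene INA had 0.458 and 4.13.

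The genes beside IRS4 on the X chromosome did not share its ratio. COL4A5, a basement membrane collagen gene 35.0 kb away, had 4.08 (3.69 to 4.48) in the WT library and 4.04 (3.63 to 4.46) in the PERK-KO library. COL4A6 had 1.84 and 2.21, and the autophagy protease gene ATG4A had 6.10 and 5.97. On the other side GUCY2F was listed at 0 in both samples, NXT2 had 4.44 and 5.76, and KCNE1L had 0.118 and 0.0896. In all 6 neighbours the confidence limits of both samples overlapped. GUCY2F and KCNE1L, with lower limits of 0 in both samples, could hardly show limits apart. Of all rows that reached 1 FPKM in either library, limits were apart in 26.1% as higher and 18.7% as lower. Of 538 such rows on the X chromosome, 54 (10%) were higher and 39 lower by more than 1.5-fold, beside 10.1% and 7.54% of all rows. Their median log2 ratio was 0.06, beside 0.04 over all rows.

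**Figure D2:**
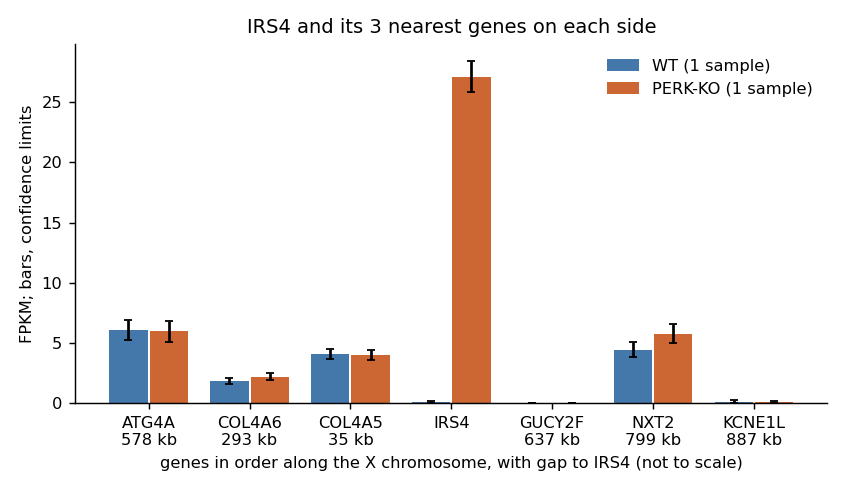
FPKM (linear axis from 0) of IRS4 and the 3 genes on each side of it along the X chromosome, in the order of their positions, with bars for the confidence limits and the gap to IRS4 in kb. IRS4 reached 27.1 in PERK-KO cells, and the neighbours stayed between 0 and 6.10 in both samples, with overlapping limits.

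IRS1 and IRS2 differed little between the libraries by comparison. IRS2 (chr13:110406184-110438914) had 25.7 FPKM (24.9 to 26.6) in the WT library and 24.9 (24.0 to 25.8) in the PERK-KO library. Its ratio was 0.968, with a counting interval of 0.922 to 1.02 that holds 1. IRS1 (chr2:227596033-227663506) had 2.51 (2.26 to 2.75) and 2.16 (1.92 to 2.40). The confidence limits of IRS1 overlapped, and its ratio of 0.862 had a counting interval of 0.744 to 0.999.

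The makeup of the IRS transcripts therefore differed between the libraries mainly in IRS4. Summed over the 3 genes, the level was 28.4 FPKM in the WT library and 54.2 in the PERK-KO library. In WT cells IRS2 made up 90.7% of the sum, IRS1 8.84% and IRS4 0.427%. In PERK-KO cells IRS4 made up 50%, IRS2 46.0% and IRS1 3.99%. FPKM is scaled by length, so these are shares of transcripts and not of fragments. Within PERK-KO cells the limits of IRS4 and IRS2 overlapped, and neither could be placed above the other. The level of IRS2 was 10.3 times that of IRS1 in the WT library and 11.5 times in the PERK-KO library.

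**Figure D3:**
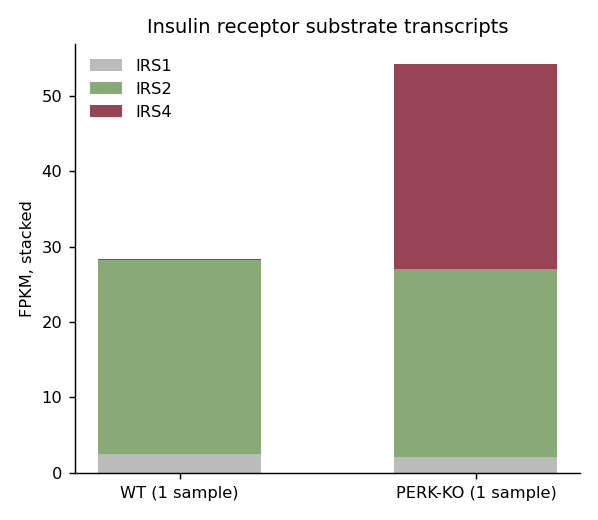
Stacked FPKM of IRS1, IRS2 and IRS4 in the WT and the PERK-KO sample (linear axis from 0). The column reaches 28.4 in WT cells, of which IRS4 is 0.121, and 54.2 in PERK-KO cells, of which IRS4 is 27.1.

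The receptor genes divided into 1 with overlapping limits and 2 that were higher in PERK-KO cells. INSR, which encodes the insulin receptor and lies at chr19:7112266-7294011, had 7.16 (6.66 to 7.66) in the WT library and 6.96 (6.49 to 7.43) in the PERK-KO library, for a ratio of 0.972 (0.883 to 1.07). IGF1R, which encodes the type 1 IGF receptor and lies at chr15:99192761-99507759, had 10.3 (9.86 to 10.7) and 14.3 (13.8 to 14.9), for a ratio of 1.39 (1.32 to 1.47). IGF2R (chr6:160390131-160527583) had 14 (13.5 to 14.6) and 21.9 (21.2 to 22.7), for a ratio of 1.56 (1.48 to 1.65). The limits did not overlap for IGF1R and IGF2R. By that rule 26.1% of the rows that reached 1 FPKM in either library were higher and 18.7% lower. The level of IGF1R was 1.44 times that of INSR in the WT library and 2.06 times in the PERK-KO library.

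Of the adaptor and PI3K subunit genes, 2 were higher and 1 had overlapping limits. GRB10 (chr7:50657760-50861159) had 12 (11.2 to 12.8) in the WT library and 16.1 (15.1 to 17.2) in the PERK-KO library, for a ratio of 1.34 (1.23 to 1.47). PIK3R2 (chr19:18263988-18281343) had 42.0 (39.7 to 44.3) and 52.6 (49.8 to 55.4), for a log2 ratio of 0.32 (0.21 to 0.43). PIK3R1 (chr5:67511584-67597649) had 4.56 (4.15 to 4.97) and 4.06 (3.65 to 4.47), for a ratio of 0.891 (0.778 to 1.02). The limits were apart for GRB10 and PIK3R2, both within 1.5-fold, and overlapped for PIK3R1. Limits were apart in 26.1% of rows at 1 FPKM or more in either library as higher, and in 18.7% as lower. GRB10 and PIK3R1 have several transcription starts in the tables, and their limits include the error of dividing fragments among transcripts. PIK3R2 was the highest of the 9 genes in both samples, at 9.23 times the level of PIK3R1 in the WT library and 13 times in the PERK-KO library.

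The order of levels in WT cells was PIK3R2, IRS2, IGF2R, GRB10, IGF1R, INSR, PIK3R1, IRS1 and IRS4, and no neighbours in it had overlapping limits. In PERK-KO cells IRS4 stood between PIK3R2 and IRS2, with limits that overlapped those of IRS2. The other 8 genes kept their order.

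Beyond a 1.5-fold difference, IRS4 and IGF2R were higher in PERK-KO cells, 2 of the 9 genes, where 10.1% of the 14594 rows that reached 1 FPKM in either library were higher by that much. None of the 9 was more than 1.5-fold lower, where 7.54% of rows were. IGF2R, at 1.56-fold, was just inside the threshold and IGF1R, at 1.39-fold, just outside it. By non-overlapping limits 5 of the 9 genes were higher, against 26.1% of rows, and none was lower, against 18.7% of rows. Since IRS4 was chosen by this ratio, nothing is read from these counts. The median log2 ratio over the 9 genes was 0.32, beside 0.04 over the 14594 rows.

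Ratios in these tables increased with transcript length, and the 9 transcripts are long. With the rows in 5 equal groups from the shortest to the longest transcripts, the median log2 ratio was -0.25, -0.05, 0.06, 0.16 and 0.27. The median transcript length was 8156 bases over the 9 genes. It was 3246 bases over the rows that reached 1 FPKM in either library and had a matched length. Rows as long as IGF2R (14061 bases) had a running median of 0.36 on the log2 scale, and those as long as IGF1R (12235 bases) had 0.37. With this running median subtracted, the log2 ratio was 0.28 for IGF2R, 0.11 for IGF1R, 0.28 for GRB10 and 0.18 for PIK3R2, so that none of these 4 was beyond 1.5-fold. IRS4 kept 7.57. The lower values were -0.51 for IRS1, -0.41 for PIK3R1, -0.35 for IRS2 and -0.30 for INSR. No gene changed sign. The source of this length trend was not tested.

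**Figure D4:**
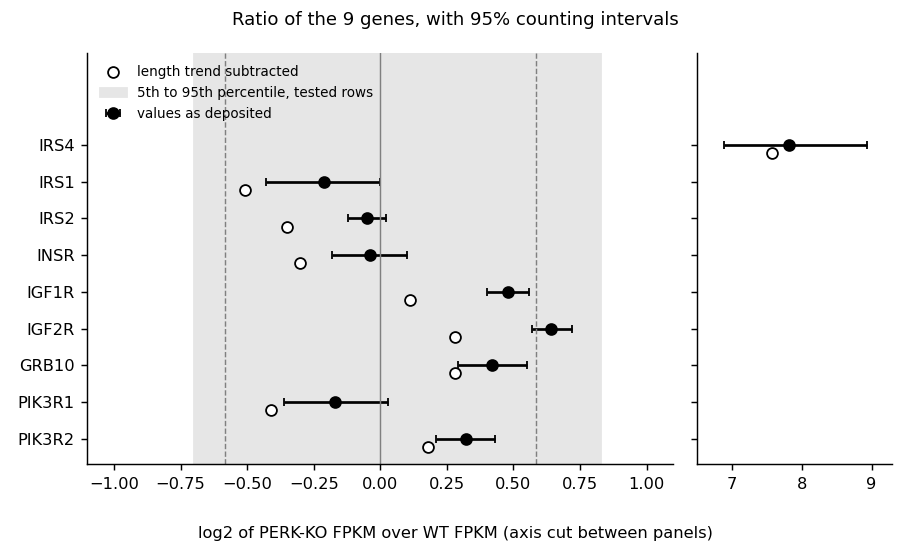
Log2 of PERK-KO FPKM over WT FPKM for the 9 genes, with 95% counting intervals (filled points), beside the value after the median of rows of similar length was subtracted (open points). The axis is cut between the panels, dashed lines mark 1.5-fold and the grey band holds the 5th to 95th percentile of tested rows, -0.70 to 0.83. IRS4 alone lies outside the band.

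The rest of the pathway, with related genes, was described by 132 further genes in 9 lists. Of these, 131 were in the tables and 105 reached 1 FPKM in either library. The FOXO transcription factor gene FOXO6 had no row. Of the 105 genes, 15 (14.3%) were higher and 3 (2.86%) lower in the PERK-KO library by more than 1.5-fold, beside 10.1% and 7.54% of all rows. Their median log2 ratio was 0.22 and their median length 4746 bases. With the length trend subtracted, 8 of the 105 were higher and 4 lower, beside 6.22% and 4.98% of the 12452 rows with a length. The median log2 ratio of the 105 was then 0.08. The count of each list below, as deposited, stands beside the 10.1% and 7.54% of all rows.

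Little ligand RNA was present. INS was listed at 0 in both samples, and IGF1 had 0.698 and 0.651. IGF2, which encodes the fetal growth factor that binds IGF1R and IGF2R, had 4.52 (4.07 to 4.96) in the WT library and 4.28 (3.81 to 4.75) in the PERK-KO library. Its row overlaps that of INS-IGF2, and fragments were divided between them by the authors' software. The list of 10 ligand genes covers the insulin, IGF and relaxin family and is wider than the ligands of INSR and IGF1R. Only IGF2 and the relaxin gene RLN2 reached 1, and neither was beyond 1.5-fold.

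Of the 6 genes for IGF-binding and related proteins at 1 or more, 1 was lower beyond 1.5-fold and none was higher. IGFBP7, a secreted protein that binds IGFs weakly, had 157 (148 to 166) in the WT library and 88.6 (82.6 to 94.5) in the PERK-KO library, so that WT was higher by a factor of 1.77. IGFBP2 had 78.4 and 55, and IGFBP5 had 5.13 and 3.88, both with limits apart and within 1.5-fold. The median log2 ratio of the list was -0.27, and that of rows of the same lengths was -0.12.

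Among receptor partners none of 4 genes was beyond 1.5-fold. FURIN, the protease that cuts the proreceptors of insulin and IGF1, had 31.2 and 38.4. Among 19 adaptor genes, 1 was higher. This was SHC1, which links receptors to the RAS pathway, with 17.9 (16.7 to 19.0) in the WT library and 27.3 (25.8 to 28.8) in the PERK-KO library, for a ratio of 1.53. GRB2, the most abundant adaptor gene, had 54.0 and 52.0.

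Of 6 further PI3K subunit genes, 2 were higher and none lower, beside 10.1% and 7.54% of all rows. PIK3CA, which encodes the catalytic subunit p110α, had 3.21 (2.77 to 3.64) and 5.0 (4.43 to 5.57), for a ratio of 1.56, and PIK3C2A of class II had 10.3 and 15.6. Both transcripts are long, and with the length trend subtracted their log2 ratios were 0.32 and 0.28. PIK3R3, the p55γ regulatory subunit gene, had 11.3 and 12.5. Of the summed level of the 3 regulatory genes, PIK3R2 made up 72.6% in WT and 76.0% in PERK-KO cells.

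Phosphatases and other brakes on the pathway differed in both directions, with 4 of 23 genes higher and 2 lower. Of all rows, 10.1% were higher and 7.54% lower by more than 1.5-fold. INPP5D, which encodes the lipid phosphatase SHIP1, had 4.55 (4.07 to 5.03) in the WT library and 1.83 (1.53 to 2.14) in the PERK-KO library, so that WT was higher by a factor of 2.48. TRIB2, a pseudokinase gene, had 9.75 (8.89 to 10.6) and 5.38 (4.79 to 5.98), with WT higher by a factor of 1.81. SOCS7 had 7.29 and 11.1, and SOCS2 had 1.5 and 2.29 with overlapping limits. The commonest transcript of the list was INPPL1, which encodes the related phosphatase SHIP2, with 58.2 and 62.8.

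In the AKT and mTOR list, 4 of 11 genes were higher and none was lower, beside 10.1% and 7.54% of all rows. MTOR, the kinase gene of both mTOR complexes, had 7.44 (6.92 to 7.96) and 13.7 (12.9 to 14.5), for a ratio of 1.84. PRR5L had 1.37 and 2.41, and RPTOR, the gene of the mTORC1 scaffold, had 7.62 and 11.8. Subtraction of the length trend left 1 of the 4 beyond 1.5-fold, PRR5L, with a log2 ratio of 0.72. MLST8, at 137 and 125, was the most abundant.

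Among 16 genes for AKT targets and their effectors, TBC1D4 was the 1 gene beyond 1.5-fold. It encodes AS160, which holds back glucose transporter traffic until AKT phosphorylates it, and had 4.30 (3.92 to 4.68) in the WT library and 8.65 (8.08 to 9.22) in the PERK-KO library, for a ratio of 2.01. BAD, the most abundant in the WT library, had 206 and 150, and EIF4EBP1, the most abundant in the PERK-KO library, had 170 and 206. In the RAS to ERK branch 3 of 18 genes were higher and none lower, beside 10.1% and 7.54% of all rows. BRAF had 1.70 (1.35 to 2.05) and 5.21 (4.55 to 5.88), for a ratio of 3.07. BRAF has a processed pseudogene, so its fragments may be shared with another locus and its value is uncertain. SOS2, which encodes an exchange factor that loads RAS with GTP, had 3.09 and 5.28, and NF1, which encodes a GTPase activator that turns RAS off, had 5.75 and 9.35. MAP2K2 was the most abundant, with 163 and 155. With the length trend subtracted, the log2 ratios of SHC1, SOCS7 and NF1 were 0.56, 0.30 and 0.34, all within 1.5-fold. Those of BRAF, TBC1D4, SOCS2 and SOS2 were 1.35, 0.73, 0.64 and 0.62, and stayed beyond it. The same held for INPP5D, TRIB2 and IGFBP7, at -1.47, -0.97 and -0.63. EIF4EBP1, SPRY1, RLN2 and IGFBP5 passed 1.5-fold only after the subtraction, at 0.65, 0.59, 0.59 and -0.62.

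**Figure D5:**
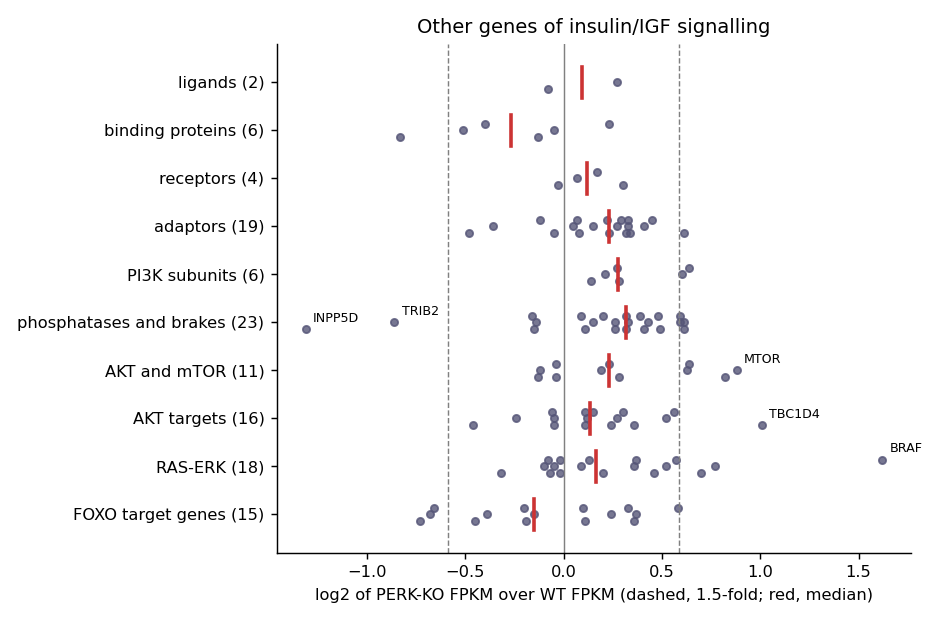
Log2 of PERK-KO FPKM over WT FPKM for the listed pathway genes that reached 1 FPKM in either library, 1 point for each gene, with the number of genes beside each list, a red mark at the list median and dashed lines at 1.5-fold. BRAF and TBC1D4 lie farthest to the right, at 1.62 and 1.01, and INPP5D farthest to the left, at -1.31.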

How the data were processed

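Poly(A) RNA libraries of 1 WT and 1 PERK-KO culture were analysed. Per the labels and the study's methods, the authors mapped reads to GRCh37/hg19 with TopHat2 2.0.13 and computed FPKM with Cufflinks 2.2.1 and Cuffdiff. The deposited tables hold FPKM per gene with confidence limits, although they are named for RPKM, and no depth or read counts. Row starts count from 0 and were raised by 1.

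From these values the PERK-KO to WT ratio was taken without a pseudocount, for rows that reached 1 FPKM in either library, and called beyond 1.5-fold. The limits were read as the value plus and minus 2 standard deviations. This gave an effective fragment number for each value and, by the exact (Clopper-Pearson) binomial method, a 95% interval of the ratio. Neither FPKM nor these numbers were given to a count model. Lengths of canonical transcripts (GENCODE 44, GRCh37) were matched by symbol and locus for 86.5% of rows at 1 or more in both samples, and the length trend is the median over the 201 rows nearest in length. Promoter windows came from RefSeq (GRCh38.p14). Python 3.11.15, numpy 2.4.6, pandas 2.3.3, scipy 1.17.1 and matplotlib 3.10.9 were used, and the calculations were tested on simulated data. Rows with as few fragments as IRS4 in the WT library were left out of that simulation.

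The 9 genes and all lists were chosen with earlier results of these data known. Beside the 9 genes, the text names the targeted gene, in each list the most abundant gene in WT cells and up to 4 genes beyond 1.5-fold with the largest ratios, the 5 rows most like IRS4 and its 3 neighbours on each side. IGF1, INS, RLN2, IGFBP2, IGFBP5, EIF4EBP1, SPRY1, FOXO1, FOXO3, the FOXO targets named by their limits and the marker genes named as exceptions were added after their values had been seen. The values of 1 gene that this rule names are not reported here. Alternatives were other pseudocounts, filters, scalings and thresholds, and the subtraction of the length trend.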

Additional observations from a re-analysis of the deposited data

How the results depend on the processing

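The log2 ratio of IRS4, 7.81, stayed between 6.94 and 7.77 under a pseudocount of 0.1, both rescalings and subtraction of the length trend, and was 4.65 with a pseudocount of 1, which is large beside the WT value of 0.121. The count of genes beyond 1.5-fold higher, 2 of 9, was 1 with the length trend subtracted and 1 at a 2-fold threshold, IRS4 in both, and 5 at a threshold of a 25% increase, where IGF1R, PIK3R2 and GRB10 joined IGF2R and IRS4. It was 2 under the other 7 alternatives. No gene was lower beyond the threshold under any of the 10 alternatives. For the other 8 genes, every alternative but the length trend left the log2 ratio within its counting interval. Rescaling moved the median of rows at 1 or more in both samples by 0.037 on the log2 scale. Over the whole table, 1481 rows were higher and 1100 lower. Counts that moved by over 1.5 times were 775 and 620 with the length trend subtracted, 479 and 304 at 2-fold, 3543 and 2691 at a 25% increase, 2496 and 1942 without a minimum level, 872 and 702 with a minimum of 5 FPKM, and 944 higher with a pseudocount of 1. No paired analysis was possible because each genotype has 1 sample, and for the same reason no replicate could be left out. Depth limits IRS4 in WT cells most, as 9 fragments stand behind that value.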

Other observations

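Textbook target genes of the FOXO transcription factors, which insulin signalling keeps out of the nucleus through AKT, were listed beside the pathway. Of 15 such genes that reached 1 FPKM in either library, 3 were lower in the PERK-KO library by more than 1.5-fold and none was higher, beside 7.54% and 10.1% of all rows tested. By non-overlapping limits, 4 were higher (BCL2L11, CCNG2, CITED2 and SESN3) and 3 lower (CDKN1A, PCK1 and SESN1), beside 26.1% and 18.7% of rows. The median log2 ratio was -0.15 beside 0.04 for all rows, and -0.01 beside 0.00 with the length trend subtracted. CDKN1A, which encodes the cell cycle inhibitor p21, had 119 FPKM (confidence limits 114 to 124) in the WT library and 75.3 (71.6 to 79.0) in the PERK-KO library. PCK1, which encodes a gluconeogenic enzyme, had 2.39 (1.96 to 2.83) and 1.44 (1.07 to 1.81), and PDK4, which encodes an inhibitory kinase of pyruvate dehydrogenase, had 1.03 and 0.647 with overlapping limits. FOXO1 had 5.60 and 6.04, and FOXO3 had 10.3 and 13.1. With the length trend subtracted, 1 of the 15 was higher and 4 were lower, beside 6.22% and 4.98% of all rows with a length. All values are from 1 library per genotype and were not tested.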
